A study of Mus musculus with 6 samples.

Results

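The genes described here encode the enzymes and transporters of glycolysis, of pyruvate and lactate handling and of the pentose phosphate pathway. They were chosen by name, and all 41 had a row among the 14868 genes of the deposited table. RNA was sequenced from CD4+ T cells of WT mice and of Ikzf4-/- mice, which lack Ikzf4, the gene of the Ikaros-family transcription factor Eos. Both genotypes had the C57BL/6J background, with 3 libraries each, numbered as in the labels. Every library came from naive cells (not yet exposed to antigen) grown for 72 h on bound antibodies that trigger the T cell receptor (anti-CD3, 5 µg/mL) and its co-receptor (anti-CD28, 2 µg/mL). IL-4 (10 ng/mL) and an antibody that blocks interferon gamma (anti-Ifng, 10 µg/mL) were added, the setting that drives T helper 2 (Th2) differentiation, so WT and Ikzf4-/- cultures shared all of this treatment. The labels give the mutation as a genotype and name no cell type or promoter that would limit it. How the allele was made, the age of the mice, and whether each library came from its own mouse or culture were not given there. The p-values therefore measure the spread between these libraries, part of which may be technical.

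Glycolysis splits glucose into pyruvate in the cytosol, with a small yield of ATP. Activated T cells are known for taking up much glucose and releasing much of it as lactate even when oxygen is present, while they build biomass for division. The pentose phosphate pathway branches off after the first phosphorylation and provides NADPH and ribose, and the pyruvate dehydrogenase complex sends pyruvate into the mitochondrial tricarboxylic acid cycle.

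The values are normalized read counts: reads per gene divided by 1 size factor per library. The reads implied by the steps between values came to 34701390 to 40604346 per library. Ikzf4 had values of 756, 500 and 483 in WT replicates 1 to 3 and of 25.2, 10.5 and 38.2 in Ikzf4-/- replicates 1 to 3, so each library matched its label. All 8 helper T cell markers looked up (Cd3d, Cd3e, Cd3g, Cd4, Trac, Gata3, Il4 and Il13) had rows, with sums of 76629 to 78387 in WT and 74139 to 78100 in Ikzf4-/- libraries. Of these 8, the Th2 cytokine genes Il4 and Il13 fell (log2 changes -0.87 and -0.82, adjusted p = 0.0144 and 0.0450 by limma), and the other 6 were not called. By limma, 5 of the 8 had an unadjusted p under 0.05 (18.1% of all genes did), among them Cd3g (-0.16), Gata3 (-0.24) and Trac (0.19). Of other cells, none of 6 myeloid markers had a row, and 5 of 6 erythroid markers including all globin genes had none. The summed levels were 2.13 to 18.4 (WT) and 7.03 to 12.6 (Ikzf4-/-) for erythroid cells, and 236 to 423 and 232 to 374 for the 2 CD8 T cell markers. For B cells 2 of 5 markers had rows, Cd79a and Cd79b, with sums of 51.1 to 83.6 (WT) and 58.6 to 90.4 (Ikzf4-/-). Of 4 dendritic, 3 natural killer and 3 mast cell or basophil markers 1 each had a row, and Itgax and Mcpt8 stayed at or under 33 while Eomes was at 149 to 299 (WT) and 165 to 284 (Ikzf4-/-). WT replicate 1 stood apart on the first principal component, at -41.3 against -12.5 and -5.26 for the other WT libraries and 11.1 to 30.8 for the Ikzf4-/- libraries. In bulk RNA, fewer cells of a kind and less RNA per cell cannot be told apart.

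Genes of most steps of the glycolytic trunk and the lactate dehydrogenase gene Ldha fell in Ikzf4-/- cells, while no gene of glucose or lactate transport, of the pentose phosphate pathway or of pyruvate entry into mitochondria was called. The difference between these branches was not itself tested beyond the ratios of gene pairs given further on. All 4 transport genes had lower means in Ikzf4-/- cells, and 3 had an unadjusted p under 0.05 by limma (18.1% of all genes did). Their median log2 fold change was -0.52, against -0.34 for upper and -0.32 for lower glycolysis genes. It was -0.06 for the pentose phosphate genes and 0.001 for the 9 genes of pyruvate fate, Ldha among them. With limma on log2(value + 1), adjusted over all genes tested, 8 of the 41 genes were called lower and 0 higher at an adjusted p under 0.05. Those 8 were Gpi1, Aldoa, Tpi1, Gapdh, Pgk1, Eno1, Pkm and Ldha, and the mean of Aldoa, the least changed, fell by 17.9% while that of Eno1, the most changed, fell by 25.5%. Among all genes tested 1.2% were called lower and 0.572% higher, together 1.77%. The median log2 fold change of the 41 genes was -0.22, against 0.005 for all genes tested, and 33 of the 41 had a lower mean in Ikzf4-/- cells. Every Ikzf4-/- value was below every WT value for 20 genes and above it for 2, against 12.2% and 11% of all genes. At an unadjusted p under 0.05 there were 23 of the 41, against 18.1% of all genes. Since the called genes are abundant, they were also set beside abundant genes: of the 240 genes with a mean of at least 20000, a limit set after the values were seen, 6.67% were called lower. Of those 240 genes, 10 belonged to the set, namely the 8 called genes, Pfkl and Tkt. The 8 called genes were themselves among the 16 genes called lower there. Slc16a3 and Pfkp, both uncalled, had means of 19737 and 19475, just under the limit.

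The calls depended on which libraries were in the fit. Without WT replicate 1, 8 of the 41 were called (1.24% of all genes were called lower), with Aldoc gained and Aldoa lost. Without Ikzf4-/- replicate 2, 13 were called (0.518% of all genes), 7 of them shared with the 8. Without WT replicate 3, 10 were called (2.25% of all genes), among them the 8. With the replicate number as a block, 13 were called lower, among them the 8 (3.08% of all genes). Bpgm was the 1 called higher, where 296 genes of all those tested were. Without WT replicate 2, Ikzf4-/- replicate 1 or Ikzf4-/- replicate 3, none was called by limma, while 75, 48 and 20 genes of all those tested were. At an unadjusted p under 0.05 by limma there were 23, 21 and 20 of the 41, against 2358, 2361 and 2048 of all 14864 genes. In those fits with none called, the log2 fold changes of the 8 genes stayed negative. Once the trends with GC content and transcript length had been taken out of every library, a setting chosen after the data were seen, 5 of the 8 were called against 0.695% of all genes (Tpi1, Gapdh, Pgk1, Eno1 and Ldha). By the adjusted p of the authors' deposited table, 11 of the 41 were lower and Bpgm higher at a threshold of 0.05, against 3.89% and 2.45% of the genes with an adjusted p there. Those 11 were the 8, Hk1, Pfkp and Pgam1.

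**Figure D1:**
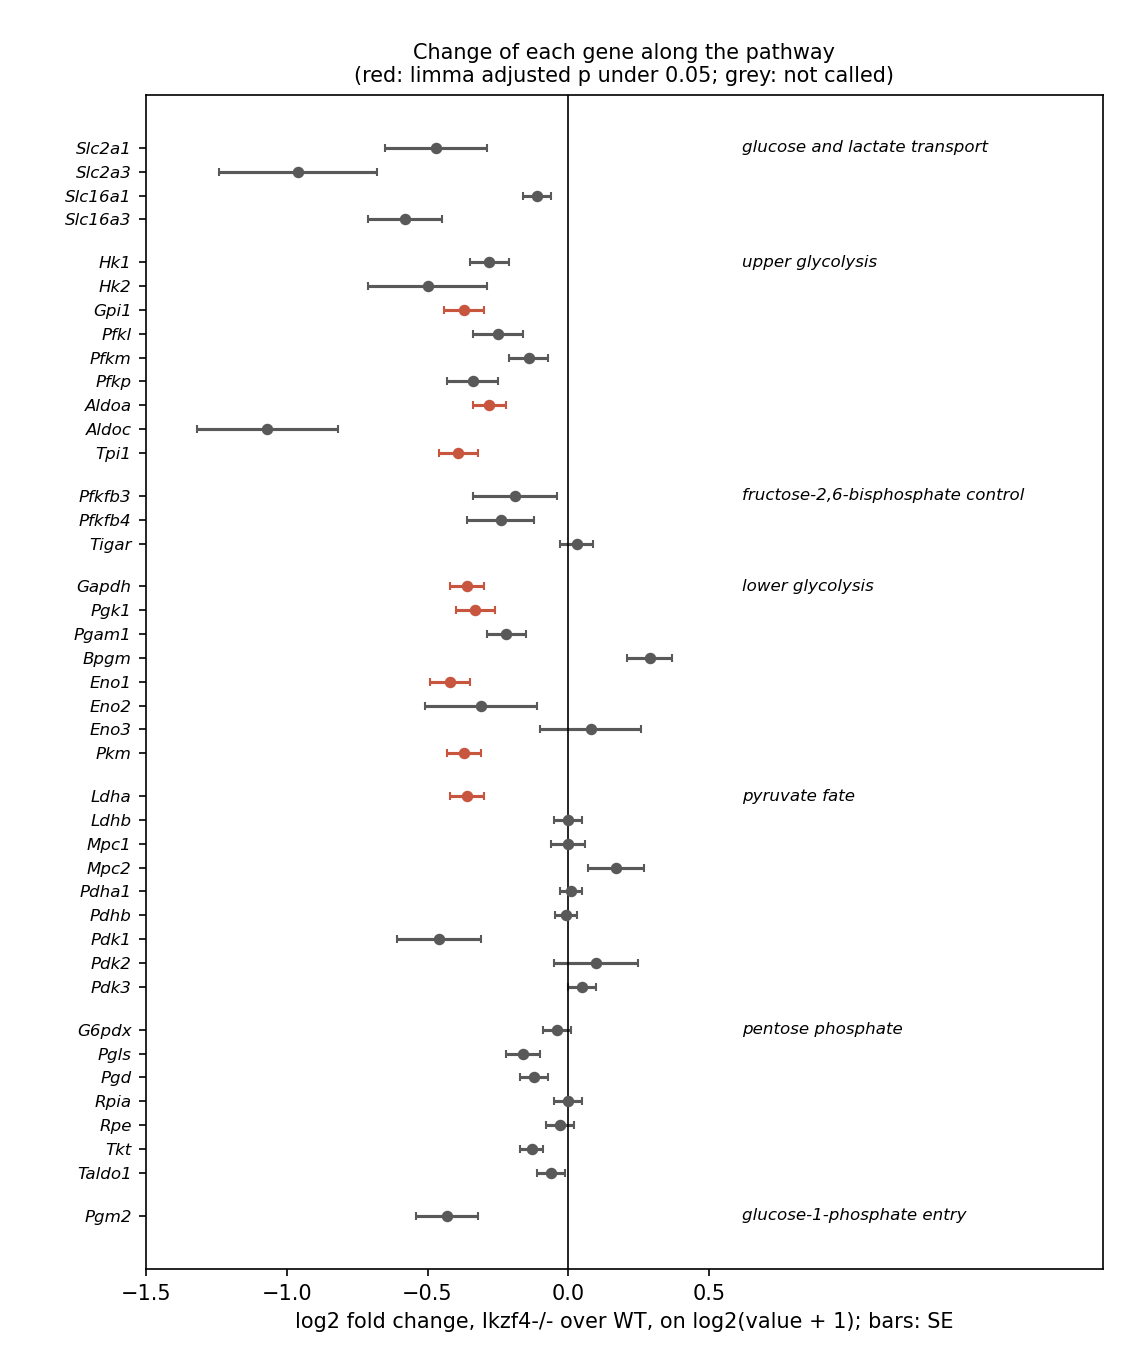
Fitted log2 fold change (Ikzf4-/- over WT, n = 3 libraries each, on log2(value + 1)) with its SE for each of the 41 genes, in pathway order, with red points for the 8 genes at a limma adjusted p under 0.05. The red points of the trunk lie between -0.42 and -0.28, and the 7 pentose phosphate genes lie between -0.16 and -0.002.

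Upstream sequence is shown here for 4 genes because the members moved unequally: Pgk1 and Ldha are called enzymes, Slc16a3 exports lactate and missed the threshold, and Ldhb is the isozyme of Ldha with nearly the same mean in both genotypes. Each line holds the 250 bases before a start site of RefSeq (GRCm38.p6), 5′ to 3′ on the strand of the gene. Capitals mark ACGTG or GCGTG on either strand (CACGT or CACGC when read on the strand shown), the core letters bound by hypoxia-inducible factors. CACGTG, the E-box bound by MYC and related factors, contains ACGTG on both strands. The windows are chrX:106186850-106187099 (plus strand) for Pgk1, chr7:46845554-46845803 (plus) for Ldha, whose other start site is not shown, chr11:120948817-120949066 (plus) for Slc16a3 and chr6:142507958-142508207 (minus) for Ldhb.
Pgk1: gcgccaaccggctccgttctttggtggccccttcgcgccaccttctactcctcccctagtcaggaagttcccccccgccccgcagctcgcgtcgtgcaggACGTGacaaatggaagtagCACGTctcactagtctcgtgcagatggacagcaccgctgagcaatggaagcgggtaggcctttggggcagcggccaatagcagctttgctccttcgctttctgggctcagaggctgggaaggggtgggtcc
Ldha: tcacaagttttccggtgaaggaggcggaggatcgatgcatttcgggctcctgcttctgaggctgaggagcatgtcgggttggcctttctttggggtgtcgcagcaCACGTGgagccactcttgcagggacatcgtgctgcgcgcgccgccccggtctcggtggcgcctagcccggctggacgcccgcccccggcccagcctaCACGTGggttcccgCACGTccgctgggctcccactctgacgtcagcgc
Slc16a3: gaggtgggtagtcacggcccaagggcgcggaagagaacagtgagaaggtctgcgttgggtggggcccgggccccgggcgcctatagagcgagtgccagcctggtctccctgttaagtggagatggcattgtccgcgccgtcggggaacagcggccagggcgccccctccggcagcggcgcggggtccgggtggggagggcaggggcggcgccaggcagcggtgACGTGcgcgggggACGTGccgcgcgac
Ldhb: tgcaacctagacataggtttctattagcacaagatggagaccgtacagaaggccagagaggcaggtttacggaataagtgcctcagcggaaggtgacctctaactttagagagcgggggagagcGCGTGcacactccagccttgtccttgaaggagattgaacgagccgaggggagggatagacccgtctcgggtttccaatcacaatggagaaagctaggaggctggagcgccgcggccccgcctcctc
The Ldha window shown holds 2 E-boxes and 1 further ACGTG, the Pgk1 and Slc16a3 windows hold 2 ACGTG each, and the Ldhb window holds 1 GCGTG and no ACGTG. These windows do not stand for the set. The Ldha window not shown also holds 1 GCGTG and no ACGTG, and those of the called genes Gpi1 and Tpi1 hold neither string. RefSeq windows were found for 40 of the 41 genes, 56 windows in all, since a gene can have several start sites whose windows overlap. ACGTG was in 32.1% of those 56 windows and in 16.6% of all 32851 windows of this length, and GCGTG was in 55.4% and 28.2%. Among the called genes, 35.7% of 14 windows held ACGTG, and among the others 31% of 42 did. GCGTG was in 35.7% of the windows of the called genes and in 61.9% of the windows of the others, and either string was in 71.4% and 76.2%. All 3 strings were thus more frequent in the set than in all windows, with no common direction between called genes and the rest. CACGTG was in 8.93% of the windows of the set and in 6.02% of all. Base composition was not taken into account, and a match is a string of letters, not a bound site.

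Glucose enters T cells through GLUT1 and GLUT3, the transporters encoded by Slc2a1 and Slc2a3, and neither was called. Slc2a1 was at 13265, 9731 and 11255 in WT replicates 1 to 3 and at 5975, 10960 and 8416 in Ikzf4-/- replicates 1 to 3. Its Ikzf4-/- replicate 2 lay inside the WT range and its replicate 1 far below it (-0.47 on the log2 scale, SE 0.18, adjusted p = 0.197 by limma). Without that replicate 1 the change was -0.24. Slc2a3 had the larger difference, with 12456, 6037 and 7114 in WT and 2912, 6261 and 3965 in Ikzf4-/- libraries. The genotypes overlapped through WT replicate 2 and Ikzf4-/- replicate 2, and the spread left the gene uncalled (-0.96 on the log2 scale, SE 0.28, adjusted p = 0.103 by limma). Without WT replicate 1 its log2 fold change was -0.65. Its adjusted p in the authors' deposited table was 0.25. Per kilobase of exon, the mean level of Slc2a1 was 3256 in WT and 2410 in Ikzf4-/- cells, above Slc2a3 at 1178 and 604.

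Lactate leaves and enters cells through the monocarboxylate transporters MCT4 (Slc16a3), known for export from strongly glycolytic cells, and MCT1 (Slc16a1). Slc16a3 was at 24737, 21817 and 23930 in WT replicates 1 to 3 and at 12477, 19958 and 15504 in Ikzf4-/- replicates 1 to 3. No Ikzf4-/- library reached a WT library, but the Ikzf4-/- values were widely spread, and the limma adjusted p of 0.0526 missed the threshold (log2 fold change -0.58, SE 0.13). It was called without Ikzf4-/- replicate 2 (0.0102), with a pseudocount of 10 (0.0489) and with the replicate number as a block (0.0291). Its adjusted p by limma rose to 0.165 without Ikzf4-/- replicate 3 and to 0.102 after the GC content and length correction. In the authors' deposited table its adjusted p was 0.0791. Slc16a1 was nearly level, with 4139 to 4647 in WT and 4005 to 4093 in Ikzf4-/- libraries (-0.11 on the log2 scale, -0.07 without WT replicate 1, adjusted p = 0.289 by limma).

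Hexokinase traps glucose in the cell as its phosphate, and Hk1 and Hk2 are its main forms in T cells. Hk1 was at 18618, 17876 and 16465 in WT and 13687, 16416 and 13760 in Ikzf4-/- libraries, without overlap, with Ikzf4-/- replicate 2 just below WT replicate 3. Its log2 fold change of -0.28 (SE 0.07) was not called (adjusted p = 0.0824 by limma). In the authors' deposited table its adjusted p was 0.00725. Hk2, the inducible form, was at 12195 in WT replicate 1 and 6407 and 7486 in the other WT libraries, against 4619, 7529 and 6006 in Ikzf4-/- replicates 1 to 3. These overlapped, and the log2 fold change of -0.50 (adjusted p = 0.255 by limma) was -0.22 without WT replicate 1. Per kilobase of exon, Hk1 stood at 2069 and Hk2 at 1457 in WT cells and at 1714 and 1014 in Ikzf4-/- cells.

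Phosphofructokinase makes the first step committed to glycolysis and is a tetramer of the products of Pfkl, Pfkp and Pfkm. Pfkp was at 23656, 21033 and 20481 in WT and at 15450, 19951 and 16279 in Ikzf4-/- libraries. No Ikzf4-/- value reached the WT range, and the gene was not called on all 6 libraries (-0.34 on the log2 scale, SE 0.09, adjusted p = 0.0782 by limma). The authors' deposited table gave Pfkp an adjusted p of 0.00284. Pfkl had a log2 fold change of -0.25 (adjusted p = 0.167 by limma) with Ikzf4-/- replicate 2 inside the WT range, and Pfkm one of -0.14 (0.298). Fructose-2,6-bisphosphate, the strong activator of this enzyme, is made by the products of Pfkfb3 and Pfkfb4 and removed by the phosphatase TIGAR. Pfkfb3 was at 4876, 3616 and 4447 in WT and 2875, 4486 and 4095 in Ikzf4-/- libraries, so only Ikzf4-/- replicate 1 of the 3 lay below the WT range (-0.19 on the log2 scale, SE 0.15, adjusted p = 0.552 by limma). Its change was -0.10 without WT replicate 1 and 0.0021 without Ikzf4-/- replicate 1. Pfkfb4 (-0.24 on the log2 scale, adjusted p = 0.311 by limma) was low throughout, at 244 to 334, and Tigar (0.03, 0.850) was at 1207 to 1319 in WT and 1240 to 1328 in Ikzf4-/- libraries.

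Outside hexokinase and phosphofructokinase, the most abundant enzyme gene of each trunk step from Gpi1 to Pkm was called lower, except Pgam1. Gpi1, the isomerase between hexokinase and phosphofructokinase, was at 39897, 37294 and 33932 in WT and at 28164, 31548 and 26198 in Ikzf4-/- libraries, and its mean fell by 22.7% (adjusted p = 0.0379 by limma). Aldoa, the aldolase of most tissues, was at 84087, 81143 and 79180 in WT and at 65396, 72844 and 62710 in Ikzf4-/- libraries, and its mean fell by 17.9% (0.0436). It had the smallest change of the 8 called genes, and it lost the call without WT replicate 1 (0.0502). Tpi1, which interconverts the triose phosphates, was at 74810, 70295 and 69110 in WT and 52045, 61654 and 50790 in Ikzf4-/- libraries, and its mean fell by 23.5% (0.0294). In each of these 3 genes the highest Ikzf4-/- library was replicate 2 and the lowest was replicate 3.

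The lower stretch, where ATP and NADH are made, held 4 of the called genes. Gapdh, which oxidizes glyceraldehyde phosphate and is often used as a reference gene, was at 216123, 199161 and 189241 in WT replicates 1 to 3 and at 157338, 165534 and 146914 in Ikzf4-/- replicates 1 to 3. Every WT value was above every Ikzf4-/- value, and the mean fell from 201509 ± 13594 to 156595 ± 9332 (SD, n = 3 each; -0.36 on the log2 scale, SE 0.06, adjusted p = 0.0258 by limma). Pgk1, the first ATP-yielding kinase of the pathway, was at 99207, 88302 and 85327 in WT and 71488, 78344 and 67433 in Ikzf4-/- libraries (-0.33 on the log2 scale, SE 0.07, adjusted p = 0.0450 by limma). Its adjusted p lay nearest the threshold of the 8. Eno1, the enolase of most proliferating cells, had the largest change of the 8, from 150337, 138808 and 129415 in WT to 105647, 110908 and 95320 in Ikzf4-/- libraries (-0.42 on the log2 scale, SE 0.07, adjusted p = 0.0237 by limma). Pkm, pyruvate kinase, was at 192813, 176750 and 167835 in WT and at 135195, 148205 and 131266 in Ikzf4-/- libraries (-0.37 on the log2 scale, SE 0.06, adjusted p = 0.0258 by limma). Its transcripts encode both PKM1 and PKM2, which gene-level values cannot separate. Under quantile scaling, which gives the libraries the same set of values rank by rank, Eno1 (-0.25, adjusted p = 0.116 by limma) and Pkm (-0.13, 0.271) lost their calls. Gapdh (-0.21, adjusted p = 0.0375 by limma) and Ldha (-0.20, 0.0364), a gene described with the pyruvate branch, had smaller changes there and stayed called.

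Pgam1, the phosphoglycerate mutase between Pgk1 and Eno1, was the main enzyme of this stretch that was not called. It was at 15225, 15032 and 15682 in WT and at 12460, 14913 and 12268 in Ikzf4-/- libraries, where replicate 2 came close to WT and the others did not (-0.22 on the log2 scale, adjusted p = 0.126 by limma). Without Ikzf4-/- replicate 2 it was called (0.0359), and in the authors' deposited table its adjusted p was 0.0428. Without Ikzf4-/- replicate 3 its adjusted p was 0.345 by limma. Bpgm, which makes the side product 2,3-bisphosphoglycerate at this point, went the other way, with 1379, 1675 and 1584 in WT and 1835, 2049 and 1770 in Ikzf4-/- libraries. All of its Ikzf4-/- values were above all WT values, without a call (0.29 on the log2 scale, SE 0.08, adjusted p = 0.1 by limma). With the replicate block it was called higher (0.0329), and in the authors' deposited table its adjusted p was 0.0269. Without Ikzf4-/- replicate 2 its adjusted p was 0.284 by limma. Bpgm is known for its role in red cells, and the only erythroid marker with a row, Alas2, was at 2.13 to 18.4.

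**Figure D2:**
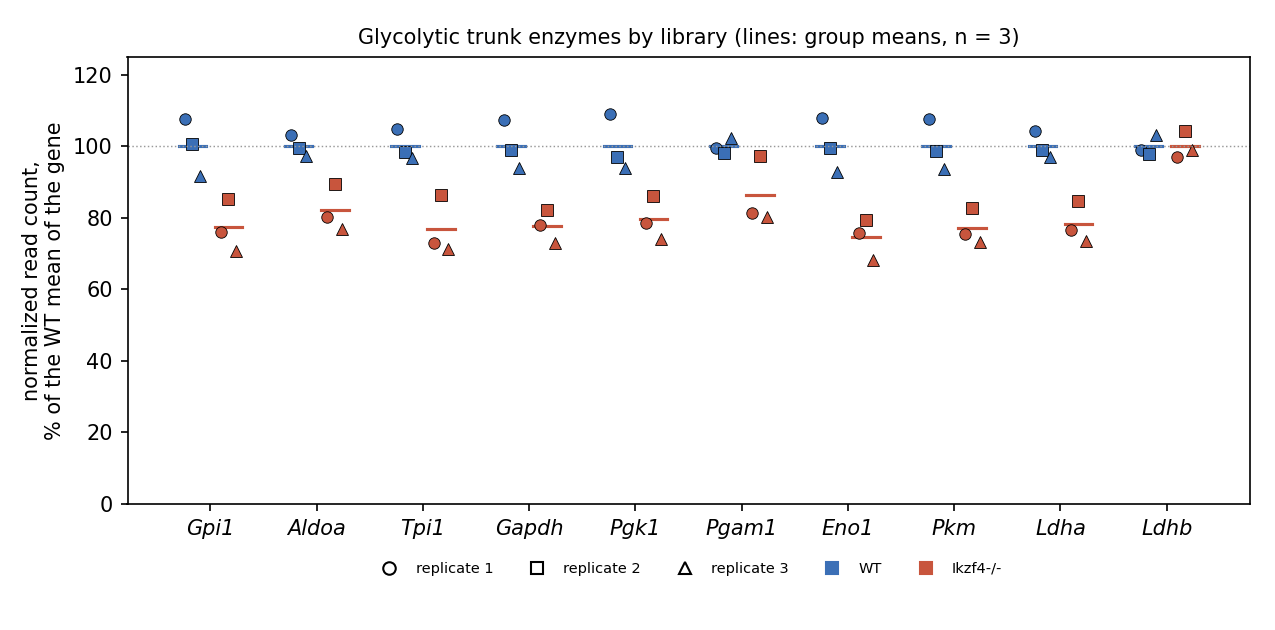
Normalized read count of 9 glycolytic enzyme genes and of Ldhb in each library as a percentage of the WT mean of the gene, with shapes for replicates 1 to 3 and lines for group means (n = 3). For the 9 enzymes the Ikzf4-/- points lie below the WT points, with Ikzf4-/- replicate 2 the highest and replicate 3 the lowest of the 3, whereas the Ldhb points lie together.

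None of the minor isozymes was called by limma on all 6 libraries, and 1 of the 3 described here had an unadjusted p under 0.05. Aldoc, the aldolase best known from brain, was at 1379, 818 and 681 in WT and 510, 512 and 313 in Ikzf4-/- libraries. The genotypes did not overlap, its log2 fold change of -1.07 (SE 0.25) was the most negative of the 41, and it was not called (adjusted p = 0.0558 by limma). Without WT replicate 1, its highest library, it was called (-0.78, adjusted p = 0.0487 by limma). Without Ikzf4-/- replicate 3 it was not (-0.84, adjusted p = 0.18 by limma). The authors' deposited table gave Aldoc an adjusted p of 0.0588. Eno2, the neuronal enolase, was at 208 to 333 in WT and 176 to 274 in Ikzf4-/- libraries, and Eno3, the muscle form, at 1436 to 2650 and 1919 to 2397. Eno3 had a change of 0.08, and of -0.14 without WT replicate 1. Both overlapped and neither was called (adjusted p = 0.462 and 0.857 by limma). Per kilobase of exon, Aldoa stood at 27987 in WT against 294 for Aldoc, and Eno1 at 25938 against 1163 for Eno3 and 56.2 for Eno2, so the called isozyme was in each case by far the more abundant one. Reads shared with near-identical copies make these values uncertain, since no source used here says to which gene such reads went. The copies with rows and related names were low: Eno1b was at 217 to 305, Pgam1-ps2 at 81.7 to 138, Pgk1-rs7 at 72.6 to 92.6, Ldha-ps2 at 16.1 to 46.8, Aldoart1 at 10.5 to 24.5 and Pgam1-ps1 at 4.02 to 18.1.

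At the pyruvate branch the gene of the lactate side fell and the genes of the mitochondrial side did not pass the test. Ldha, the lactate dehydrogenase subunit that favours lactate formation, was at 151746, 143922 and 141024 in WT and at 111346, 123208 and 106955 in Ikzf4-/- libraries. The genotypes were well apart, and the mean fell from 145564 ± 5546 to 113836 ± 8408 (SD, n = 3 each; -0.36 on the log2 scale, SE 0.06, adjusted p = 0.0246 by limma). Ldhb, the other subunit, was at 2747 to 2898 in WT and 2721 to 2928 in Ikzf4-/- libraries, with means of 2808 and 2810. The carriers that bring pyruvate into mitochondria had means of 1599 (WT) and 1598 (Ikzf4-/-) for Mpc1 and 972 and 1091 for Mpc2. The subunits of pyruvate dehydrogenase had means of 5654 and 5694 for Pdha1 and 6093 and 6066 for Pdhb. The SE of the log2 fold change was 0.04 for Pdha1 and Pdhb and 0.05 for Ldhb, below the 0.06 to 0.07 of the 8 genes that fell, and the sign of each of them changed with the scaling, the correction or the libraries used.

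Pyruvate dehydrogenase is switched off by its kinases, of which Pdk1 is the one best known as a hypoxia target. Pdk1 was at 4413, 3840 and 3866 in WT and at 2226, 3779 and 2981 in Ikzf4-/- libraries. No Ikzf4-/- value reached WT, but replicate 2 came close, and the gene was not called (-0.46 on the log2 scale, SE 0.15, adjusted p = 0.133 by limma). Without Ikzf4-/- replicate 2 it was called (0.0416), and without Ikzf4-/- replicate 1 its change was -0.26 (0.241). The authors' deposited table gave Pdk1 an adjusted p of 0.303. Pdk3 was at 2380 to 2420 in WT and 2444 to 2544 in Ikzf4-/- libraries, without overlap but with a log2 fold change of only 0.05 (0.645), and Pdk2 had one of 0.10 (0.764).

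**Figure D3:**
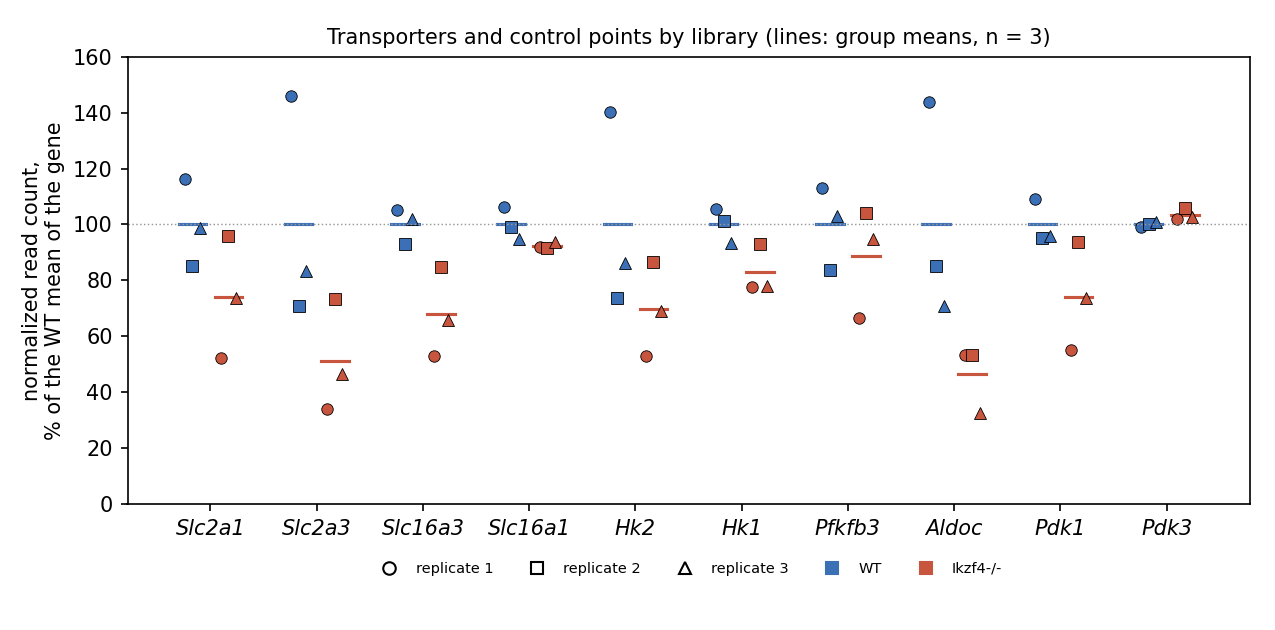
Normalized read count of 10 transporter and control genes in each library as a percentage of the WT mean of the gene, with shapes for replicates 1 to 3 and lines for group means (n = 3). For Slc2a1, Slc2a3, Slc16a3, Hk2, Hk1, Pfkfb3 and Pdk1, WT replicate 1 is the highest library and Ikzf4-/- replicate 1 the lowest, which is not so for Slc16a1, Aldoc and Pdk3.

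The libraries did not share 1 order across the set. The 8 called genes were highest in WT replicate 1 and lowest in Ikzf4-/- replicate 3, with Ikzf4-/- replicate 2 the highest of its genotype. Slc2a1, Slc2a3, Slc16a3, Hk2, Pfkfb3 and Pdk1 were also highest in WT replicate 1 but lowest in Ikzf4-/- replicate 1. These 6 were put together after their values were seen, and they were not the only genes with this pattern. Hk1, Pfkp, Pfkfb4 and Pgm2 had the same highest and lowest libraries. Other genes of transport and control differed: Slc16a1 was lowest in Ikzf4-/- replicate 2, and Tigar, Pdk2 and Pdk3 were lowest in WT replicate 1. Over all 41 genes, WT replicate 1 was the highest library for 24, and Ikzf4-/- replicate 2 was the highest Ikzf4-/- library for 32. Genes of 1 library share its RNA and its scaling, so these counts are not independent of each other.

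The pentose phosphate genes differed little between genotypes. None of its 7 genes was called by limma, 3 had an unadjusted p under 0.05 (18.1% of all genes did), and their median log2 fold change was -0.06. All 7 had a lower mean in Ikzf4-/- cells, and 4 of them, Pgls, Pgd, Tkt and Taldo1, had every Ikzf4-/- value below every WT value, against 12.2% of all genes. G6pdx, the entry enzyme and first source of NADPH, was at 2874 to 3080 in WT and 2807 to 2922 in Ikzf4-/- libraries (-0.04 on the log2 scale, SE 0.05, adjusted p = 0.701 by limma). Pgls, the lactonase that follows, was at 2417, 2292 and 2413 in WT and 2208, 2153 and 1995 in Ikzf4-/- libraries, without overlap (-0.16, SE 0.06, 0.161). Pgd, the second NADPH-making enzyme, was at 9336, 9241 and 9825 and at 8791, 8911 and 8392 (-0.12, SE 0.05, 0.186). Neither was called, although all Ikzf4-/- values of both lay below all WT values. In the branch that rearranges sugars, Tkt, transketolase, was the most abundant, with 22084, 22033 and 22624 in WT and 21148, 20375 and 19616 in Ikzf4-/- libraries (-0.13, SE 0.04, 0.156). Taldo1 (-0.06, 0.527), Rpe (-0.03, 0.836) and Rpia (-0.002, 0.991), which encode transaldolase and the epimerase and isomerase of pentose phosphates, had smaller differences still.

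The row that the deposited table names Pgm2 carries the identifier ENSMUSG00000025791, which lies on chromosome 4 (99929414 to 99987294, plus strand, GRCm38) and is named Pgm1 in the reference used here. It is thus the phosphoglucomutase that links glucose 6-phosphate to glucose 1-phosphate, glycogen and galactose, and it was kept apart from the pentose phosphate genes. It was at 6925, 5652 and 5638 in WT and at 4024, 5449 and 4083 in Ikzf4-/- libraries. The genotypes did not overlap and the gene was not called (-0.43 on the log2 scale, SE 0.11, adjusted p = 0.0809 by limma). It was called without Ikzf4-/- replicate 2 (0.0296) and with the replicate block (0.0492). Without other single libraries its adjusted p by limma rose to as much as 0.241. In the authors' deposited table its adjusted p was 0.156.

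Set against the whole library, the 41 genes together held 3.04% to 3.34% of the normalized counts in WT and 2.41% to 2.76% in Ikzf4-/- libraries. The 8 called genes accounted for most of this, with 2.43% to 2.7% and 1.9% to 2.18%. The 7 pentose phosphate genes held 0.129% to 0.135% and 0.121% to 0.128%. Scaling each library to an equal total moved the median over all genes to 0.03 and that of the 41 to -0.19, and the same 8 genes were called.

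Ratios between genes of the same library do not depend on scaling between libraries, and 16 pairs were compared. With 3 libraries against 3 the exact two-sided permutation test cannot give a p below 0.1, which 7 of the 16 pairs reached, each with an adjusted p of 0.229 over the 16, so none passed. The log2 ratio of Ldha to Ldhb was 5.77, 5.71 and 5.60 in WT and 5.35, 5.39 and 5.27 in Ikzf4-/- libraries, a difference of -0.36 (exact permutation p = 0.1). That of Ldha to Pdha1 was 4.73, 4.68 and 4.65 against 4.33, 4.38 and 4.24, a difference of -0.37 (exact permutation p = 0.1). Both gaps between genotypes were wider than the spread within them, so less Ldha message per Ldhb or Pdha1 message was found in each Ikzf4-/- library. Pdk1 to Pdha1 (difference -0.47), Aldoc to Aldoa (-0.79), Slc2a1 to Slc2a3 (0.50), Slc16a1 to Slc16a3 (0.47) and Pfkm to Pfkp (0.20) also did not overlap, the lactate transporters only narrowly, with -2.33 in WT replicate 2 and -2.32 in Ikzf4-/- replicate 2. The remaining 9 pairs overlapped, among them Hk2 to Hk1 (-0.22, exact permutation p = 0.5) and G6pdx to Hk2 (0.45, exact permutation p = 0.4).

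**Figure D4:**
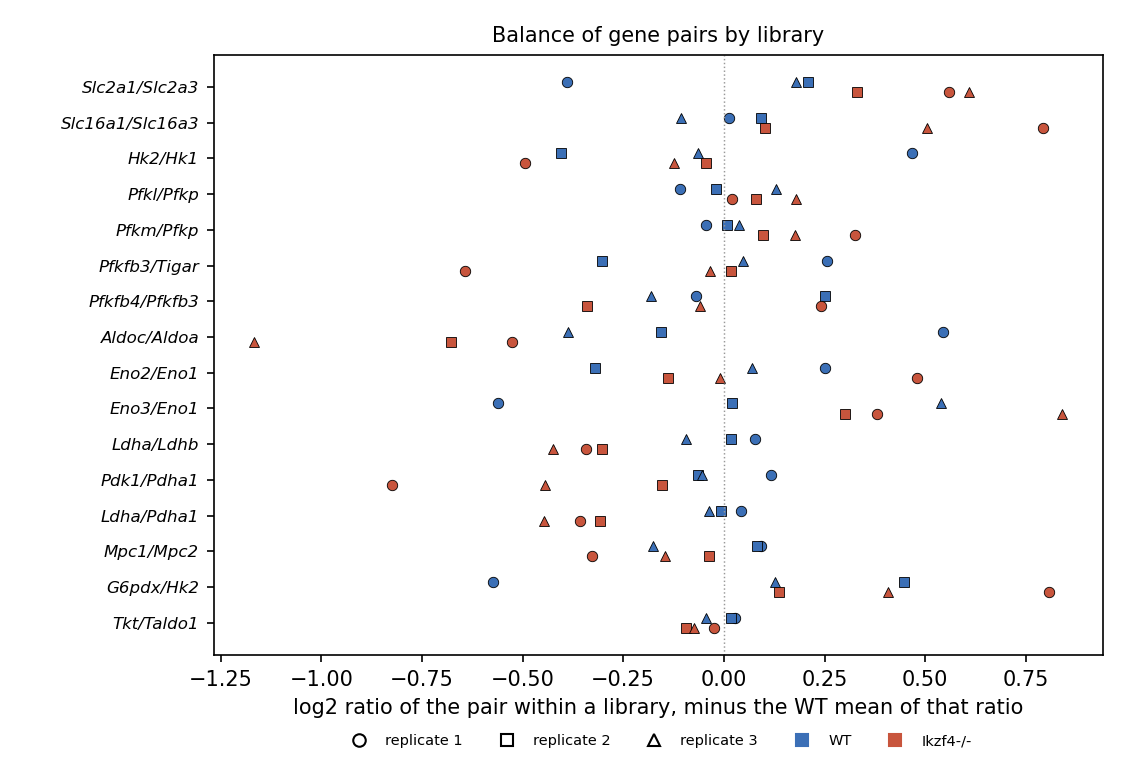
Log2 ratio of each of the 16 gene pairs within each library, minus the WT mean of that ratio, with shapes for replicates 1 to 3. The Ikzf4-/- points of Ldha/Ldhb and Ldha/Pdha1 lie to the left of the WT points in a narrow band, and those of Hk2/Hk1 and G6pdx/Hk2 lie among widely spread WT points.

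Reactions next to these pathways were looked up in 9 further lists of 124 genes, of which 102 had rows. Limma called 3 of these genes, each lower in Ikzf4-/- cells, where 1.2% of all genes were called lower. They came from the list of glycogen and galactose metabolism (2 of 14 genes called, 7 at an unadjusted p under 0.05, median log2 change -0.16) and from that of regulators of sugar use (1 of 16 called, 6 at an unadjusted p under 0.05, median -0.1). Galk1, which brings galactose in towards glucose 1-phosphate, was at 8524, 6781 and 6671 in WT and 4835, 5475 and 4727 in Ikzf4-/- libraries (-0.54 on the log2 scale, SE 0.09, adjusted p = 0.0237 by limma). Pygl, the glycogen phosphorylase of liver and leukocytes, was at 88.3 to 151 and at 21.1 to 41.9 (-1.78, SE 0.30, 0.0249). Both act on the same hexose phosphate pool as the row named Pgm2. Myc, which encodes the factor known to drive metabolic genes in activated T cells, was at 6834, 5242 and 5355 in WT and 4378, 3970 and 4565 in Ikzf4-/- libraries (-0.42, SE 0.09, 0.0490). Hif1a, which encodes a hypoxia-inducible factor and is named here after its values were seen, was at 10186 to 15221 in WT and 9871 to 10880 in Ikzf4-/- libraries, with overlap and without a call (-0.27, adjusted p = 0.241 by limma).

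None of the 18 tricarboxylic acid cycle genes was called by limma, with 2 at an unadjusted p under 0.05 and a median log2 fold change of 0.009. Their summed level was 95285 to 97367 in WT and 96184 to 97970 in Ikzf4-/- libraries. None was called among 6 other pyruvate dehydrogenase genes (0 at an unadjusted p under 0.05, median -0.03), 12 genes of NADH shuttles (2, median -0.03), 7 of ribose phosphate use (2, median -0.05) or 11 of polyol, fructose and hexosamine metabolism (2, median -0.02). Of 8 genes of gluconeogenesis and pyruvate carboxylation, 4 had rows and none was called (3 at an unadjusted p under 0.05, median -0.31). Of 28 other isozymes 14 had rows, again with none called (2 at an unadjusted p under 0.05, median -0.07).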

How the data were processed

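Bulk RNA-seq of 3 WT and 3 Ikzf4-/- libraries of Th2-polarized CD4+ T cells was deposited as 1 table of 14868 genes. Per the submitters' processing notes, Trimmomatic 0.36, STAR 2.5.2b and DESeq2 were used with GRCm38 (mm10). The counting tool and strand setting are not given in the sources used here. The deposited signal values are read counts that the authors divided by a size factor per library (0.939 to 1.11 as implied by the values), and 100% of them were whole multiples of 1 step per library within 0.01 reads. The authors deposited log2 fold changes, p-values and adjusted p-values in the same table, from the submitters' own comparison, and 12849 genes had an adjusted p.

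From these values, genes with a mean of at least 10 (14864, leaving out 4) were fitted with limma 3.58.1 (trend, R 4.3.3) on log2(value + 1) with genotype as the only term. All 41 genes of the set passed this filter. Adjusted p-values are Benjamini-Hochberg over all genes tested, with a threshold of 0.05 for a call, and changes are log2 of Ikzf4-/- over WT. As the main test, one on raw counts had been planned for raw counts only, and the deposited values are normalized. A count test on recovered reads was planned as an alternative and was not run. The steps of Ikzf4-/- replicates 1 and 3 (size factors 0.991 and 0.995) lay too near 1 for the recovery rule. The limma fit was tested on simulated data in which genes varied independently and the changed genes differed by more than the called genes of the set. That test therefore does not cover changes of the size reported here. Replicates differed by 7.38 to 18.5 times the chi-square of sampling noise, so each library counted once. Ratios of gene pairs were tested with exact two-sided permutation tests (scipy 1.17.1), adjusted over the 16 pairs. Levels per kilobase use the merged exon length of each gene in the GENCODE annotation of GRCm38, and upstream windows come from RefSeq.

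The genes and lists were chosen with earlier results of these data known. Values in every library are given for each called gene, each gene without overlap and with an unadjusted p under 0.05, and the most abundant gene of each arm, except where ranges were enough. Slc2a1, Slc2a3 and Hk2 were given in full after their values were seen. The row named Pgm2 was moved out of its planned arm once its identifier was seen. Same-numbered libraries deviated from their group means with correlations of 0.145, 0.0122 and 0.142 over genes, and since replicate 2 showed almost none, the libraries were treated as unpaired. Alternatives covered scaling, filter, pseudocount, the replicate block, leaving out each library, and a GC content and transcript length correction (splines with 5 degrees of freedom, 14827 genes).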

Additional observations from a re-analysis of the deposited data

How the results depend on the processing

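Most results kept their direction and their side of the threshold, mostly as genes uncalled in the main fit that stayed uncalled. Of single-gene values 579 kept both, 31 were no longer called, 20 became called and 26 changed sign. Of ratios 107 stayed and 5 changed sign. Only a called gene can lose its call, so all 31 losses were among the 8 called genes. All 8 lost it without WT replicate 2, without Ikzf4-/- replicate 1 and without Ikzf4-/- replicate 3. The number of genes called, 263, was 754 with the replicate block and 815 in the authors' deposited table, and it ran from 20 to 523 when single libraries were left out. The block called 458 genes lower and 296 higher. Of the 41 genes, 13 were lower and 1 higher with the replicate block, 5 were lower after the GC content and length correction (chosen after the data were seen), 1 was higher in the authors' deposited table, and 0 to 13 were lower when single libraries were left out. With the block, Slc16a3, Hk1, Pfkp, Aldoc and Pgm2 became called lower and Bpgm higher. The labels do not say whether a number marks a shared source, and the block changed no other call among the 41. Pseudocount 10 added Slc16a3 and quantile scaling lost Eno1 and Pkm. The cause of these changes was not tested. Without 1 library, both groups' spread is shared in the fit.

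Genes near no difference changed sign. Leaving out single libraries gave log2 changes of -0.32 to 0.0021 for Pfkfb3, -0.0039 to 0.06 for Tigar, -0.14 to 0.3 for Eno3, -0.03 to 0.02 for Ldhb, -0.02 to 0.03 for Mpc1 and for Pdha1, -0.03 to 0.02 for Pdhb and -0.02 to 0.02 for Rpia. Ratio differences ran from -0.42 to 0.01 for Hk2 to Hk1, -0.2 to 0.09 for Pfkfb4 to Pfkfb3 and -0.08 to 0.23 for Eno2 to Eno1. After the GC content and length correction Ldhb was at -0.0012 and Pdha1 at -0.02. Under quantile scaling Mpc1 was at 0.01, Pdhb at 0.02 and Rpia at 0.01, under equal totals these were at 0.03, 0.02 and 0.03, and under upper quartile scaling Mpc1 was at 0.0041 and Rpia at 0.0024. The cause was not tested. The planned count tests, with their own filters and normalization, were not run. Over all genes together, replicates differed by 7.38 to 18.5 times the chi-square of sampling noise. The part that depth played in single genes was not tested.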

Other observations

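Bsg, which encodes basigin, the chaperone that carries the lactate transporters MCT1 and MCT4 to the cell surface, was looked up after its values were seen. It was at 22899, 20100 and 19511 in WT replicates 1 to 3 and at 16099, 16972 and 14690 in Ikzf4-/- replicates 1 to 3, without overlap. Its log2 change was -0.39 (SE 0.07, adjusted p = 0.0281 by limma). The transporter gene Slc16a3 had a larger change of -0.58, also without overlap, and narrowly missed the threshold (adjusted p = 0.0526 by limma). Slc16a1 was nearly level. The difference between Bsg and the transporter genes was not tested. The Ikzf4-/- libraries of Bsg were in the same order as those of the 8 called enzymes, with replicate 2 highest and replicate 3 lowest.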
